A study of Mus musculus with 8 samples.

Results

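The 8 Wnt genes that lie side by side in pairs in the mouse genome, Wnt6 with Wnt10a, Wnt1 with Wnt10b, Wnt3 with Wnt9b and Wnt3a with Wnt9a, were examined in 4 lists of called peaks from chondrocytes, the cells of cartilage. They were taken by name, as 8 of 21887 protein-coding genes of the RefSeq table for GRCm38.p6, and a peak was tied to a gene when it lay over it or within 5 kb of it. The libraries carry the label H3K27me3, histone H3 trimethylated at lysine 27, and came from cultured cartilage cells of 4 genotypes: wild type, and conditional knockouts (cKO) of Ezh2, which deposits the mark, and of Utx and Jmjd3, which remove it. Each genotype had 1 immunoprecipitated (ChIP) library and 1 input library, 8 in all. The sources used here do not give the Cre driver, the age of the animals or the number of animals behind a library. With n = 1 per genotype no difference below has a replicate check and no test between genotypes was made. Title prefixes differ between the wild-type libraries, the Ezh2-cKO libraries and the libraries of the other 2 knockouts, so every contrast with wild type crosses a prefix, and what it marks cannot be told apart from genotype.

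Wnt proteins are secreted, lipid-modified ligands that bind Frizzled receptors together with Lrp5 or Lrp6, stabilise beta-catenin in the receiving cell and switch on Tcf and Lef target genes. The neighbouring pairs are an old arrangement, kept from ancestral gene duplications. In the skeleton these ligands are known for joint formation (Wnt9a), for bone mass (Wnt1, Wnt10b) and for limb outgrowth (Wnt3). In Polycomb biology a gene under broad H3K27me3 is usually silent, and Wnt loci are classical targets.

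A called peak is not read here as silencing. In wild type 55.6% of 21263 RefSeq starts of protein-coding genes lay under a peak (57.8% in the Ezh2-cKO, 61.0% in the Utx-cKO and 57.1% in the Jmjd3-cKO), and 97.6% of those with 30 or more CpG in the 250 bases before the start. Which mark the peaks follow was not tested. All 6 chondrocyte marker genes checked, Sox9, Col2a1, Acan, Col9a1, Col11a1 and Matn1, had a peak in every list, as did the fibroblast genes Col1a1, Thy1 and Pdgfra. Of 5 marker genes of other lineages, Myod1 and Cdh5 had none in any list, Myf5 had one in Utx-cKO, Ptprc in Utx-cKO and Jmjd3-cKO, and Pecam1 in every list. Over all protein-coding genes 68.7% (wild type) to 73.5% (Utx-cKO) had a peak within 5 kb. Peaks do not measure expression, so they do not check the cell type. The ChIP libraries held 25655346 to 34786292 fragments after removal of duplicates and the lists 27013 (Jmjd3-cKO) to 49405 (Utx-cKO) peaks, with 28057 in wild type and 33739 in Ezh2-cKO.

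All 4 pairs consisted of consecutive protein-coding genes, but only the name is tandem for 3 of them. RefSeq starts were at hand for 7 of the genes, Wnt10a being the exception, and in each of the other 3 pairs the genes point away from each other. Wnt10b (chr15:98770712-98778206) starts at 98778150 on the minus strand and Wnt1 (chr15:98789857-98793830) at 98789857 on the plus strand, 11.7 kb apart. Wnt9b (chr11:103727362-103775272) and Wnt3 (chr11:103774175-103818021) start 24.4 kb apart, and their gene models overlap by 1098 bp. Wnt3a (chr11:59248036-59290751) and Wnt9a (chr11:59306849-59333552) start 16.2 kb apart. Wnt6 (chr1:74754342-74785322) starts on the plus strand at 74771892, inside its widest gene model, and ends 6.70 kb before Wnt10a (chr1:74792019-74804176).

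The upstream sequences of 5 of the 7 starts are given as examples with and without a peak over the start, and those of Wnt6 and Wnt1 are left out. They are the 250 bases before the RefSeq start in GRCm38.p6, 5′ to 3′ on the strand of the gene, with every CpG in capitals. The starts of Wnt9a, Wnt9b and Wnt10b lay under a peak in all 4 lists, that of Wnt3a in Utx-cKO only, and that of Wnt3 in none.
Wnt9a (chr11:59306680-59306929, plus strand): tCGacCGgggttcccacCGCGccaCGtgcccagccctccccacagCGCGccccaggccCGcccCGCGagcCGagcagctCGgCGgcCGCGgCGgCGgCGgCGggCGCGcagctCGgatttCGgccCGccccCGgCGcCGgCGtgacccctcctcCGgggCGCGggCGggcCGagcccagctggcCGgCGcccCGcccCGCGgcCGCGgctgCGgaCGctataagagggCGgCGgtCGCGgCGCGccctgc
Wnt3a (chr11:59290752-59291001, minus strand): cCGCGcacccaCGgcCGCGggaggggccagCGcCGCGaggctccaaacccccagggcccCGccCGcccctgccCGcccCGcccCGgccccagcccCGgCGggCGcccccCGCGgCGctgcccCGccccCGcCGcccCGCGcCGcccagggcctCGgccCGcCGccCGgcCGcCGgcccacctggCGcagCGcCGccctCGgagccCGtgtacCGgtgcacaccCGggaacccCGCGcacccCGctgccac
Wnt9b (chr11:103749822-103750071, minus strand): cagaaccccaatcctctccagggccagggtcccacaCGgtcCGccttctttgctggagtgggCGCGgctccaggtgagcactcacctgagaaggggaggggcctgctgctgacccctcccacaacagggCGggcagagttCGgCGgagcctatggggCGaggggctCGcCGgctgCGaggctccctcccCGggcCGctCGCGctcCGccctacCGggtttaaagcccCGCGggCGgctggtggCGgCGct
Wnt3 (chr11:103773925-103774174, plus strand): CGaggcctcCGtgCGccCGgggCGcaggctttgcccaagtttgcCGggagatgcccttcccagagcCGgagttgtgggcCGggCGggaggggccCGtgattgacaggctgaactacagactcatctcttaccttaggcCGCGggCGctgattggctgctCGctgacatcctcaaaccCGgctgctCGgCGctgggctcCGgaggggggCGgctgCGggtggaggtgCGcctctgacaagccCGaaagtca
Wnt10b (chr15:98778151-98778400, minus strand): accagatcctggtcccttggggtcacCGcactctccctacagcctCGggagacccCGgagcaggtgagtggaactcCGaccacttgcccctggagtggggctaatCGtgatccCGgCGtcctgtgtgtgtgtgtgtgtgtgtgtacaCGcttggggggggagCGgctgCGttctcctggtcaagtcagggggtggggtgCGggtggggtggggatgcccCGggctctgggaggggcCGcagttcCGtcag

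All 8 genes had a peak over them or within 5 kb in all 4 lists. Over all protein-coding genes the share was 68.7% in wild type, 70.6% in the Ezh2-cKO, 73.5% in the Utx-cKO and 68.9% in the Jmjd3-cKO. The members therefore differ between genotypes not in having a peak but in how many, how wide and where. Wild type held 15 distinct peaks at the 4 pairs, Ezh2-cKO 18, Utx-cKO 30 and Jmjd3-cKO 16. The Utx-cKO list was the longest of the 4, and when each list was limited to its 27013 peaks of highest −log10 q, the Utx-cKO number fell from 30 to 16 while the others stayed at 15, 18 and 16. Joined across lists from 1 bp of overlap, the peaks fell into 30 regions, of which 14 were held by all 4 lists and 10 by Utx-cKO alone, peaks beyond the 5 kb limit included. No region lacked a Utx-cKO peak. The share of regions held by Utx-cKO alone over the whole lists was not computed, so 10 of 30 has no background beside it.

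**Figure D1:**
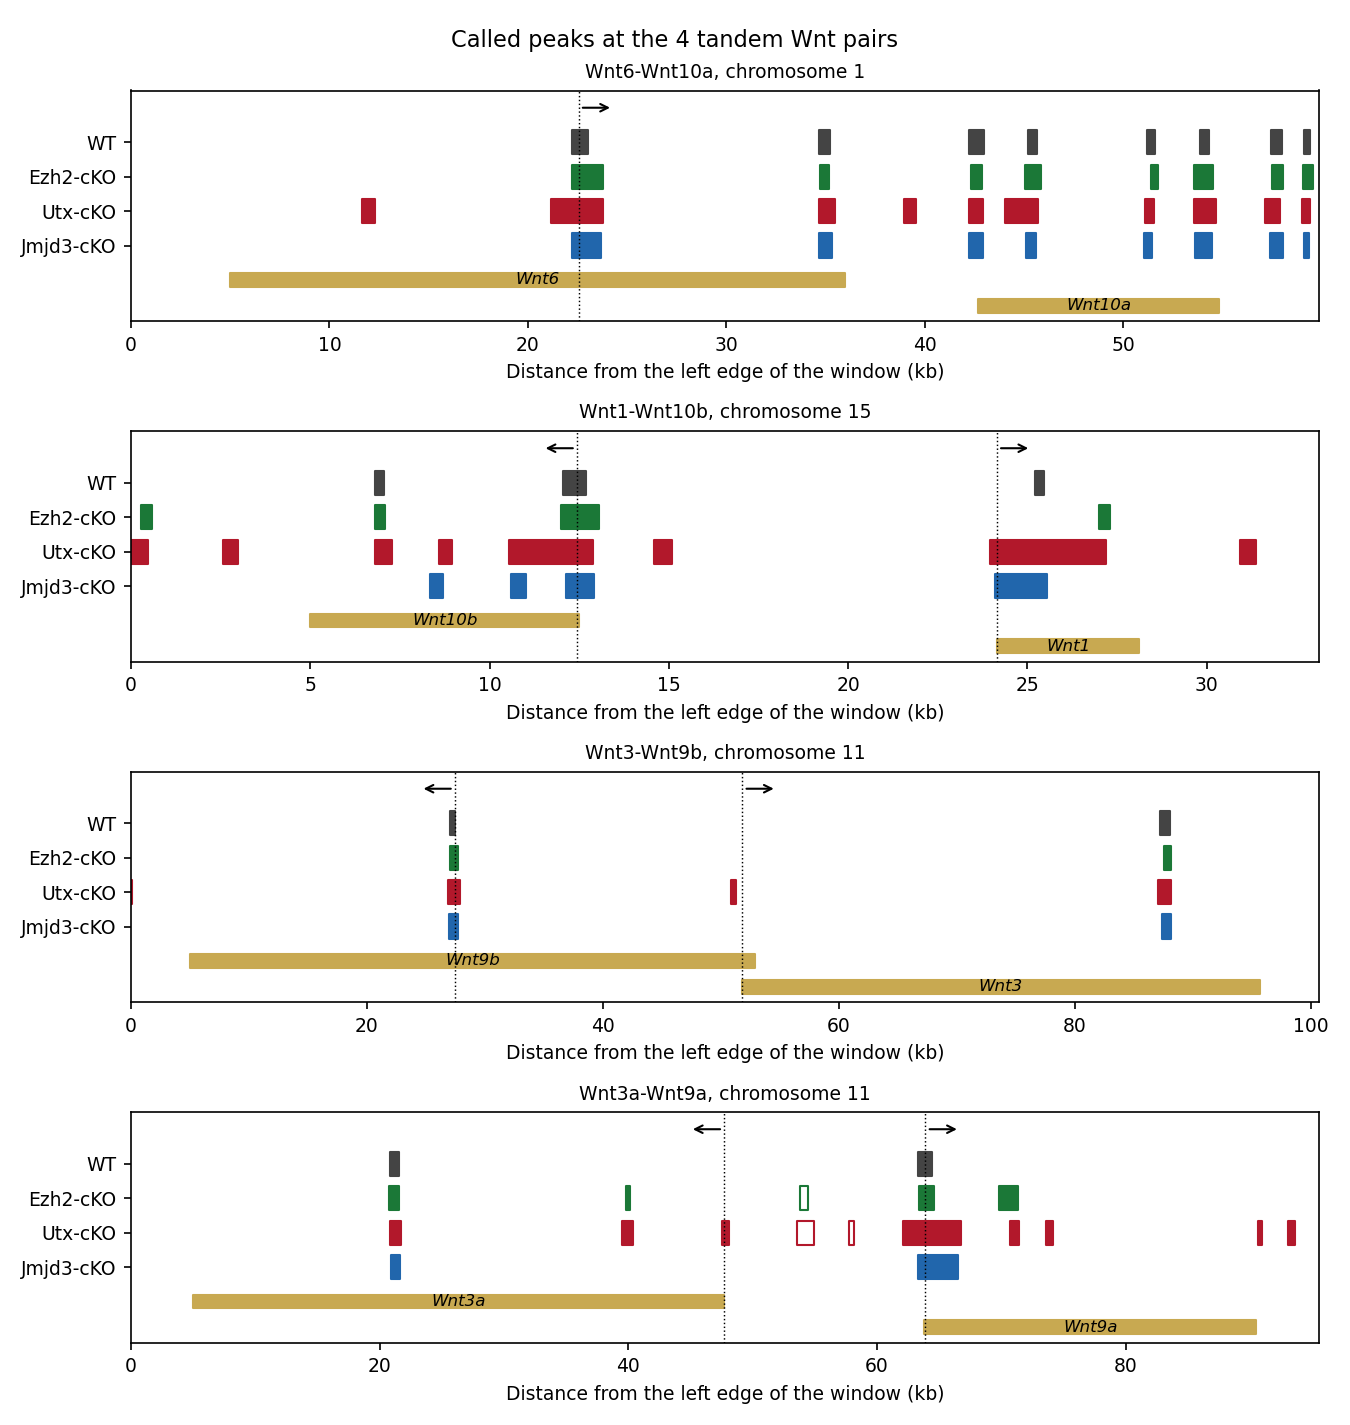
Positions of called peaks at the 4 pairs, in kb from the left edge of each window (outermost gene ends plus 5 kb). Each row is 1 genotype (1 ChIP library), ochre bars are the gene models, dotted lines with arrows are the 7 RefSeq starts and their direction, and open boxes are peaks over 5 kb from both genes. The Wnt6-Wnt10a window holds the same 8 regions in every row, and 11 of 30 regions are drawn with a peak in Utx-cKO alone. The number is 10 when a wild-type peak 44 bp outside the Wnt3-Wnt9b window, not drawn, is counted.

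**Figure D2:**
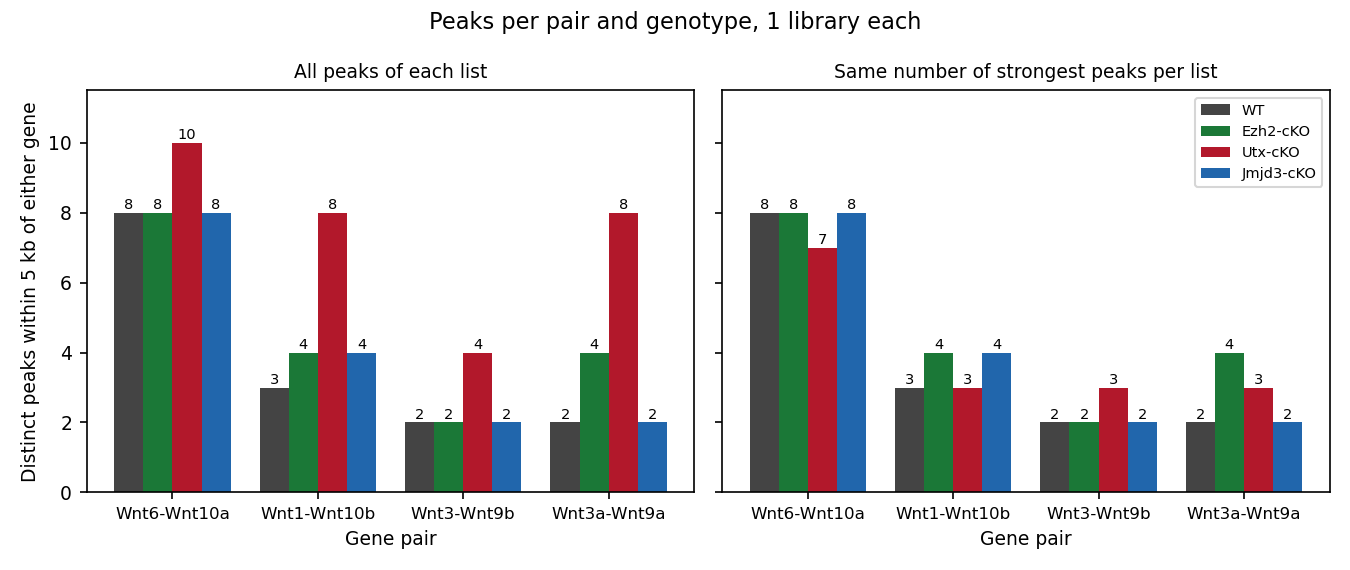
Distinct peaks within 5 kb of either gene of a pair, by genotype, 1 library each, with all peaks (left) and with the 27013 peaks of highest −log10 q per list (right). The Utx-cKO bars reach 10, 8, 4 and 8 on the left and 7, 3, 3 and 3 on the right.

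With all called peaks, Wnt6 and Wnt10a were the pair with the most peaks in every list, and the number hardly differed between genotypes. Wild type, Ezh2-cKO and Jmjd3-cKO each held 8 peaks there and Utx-cKO 10, and the 8 wild-type peaks were each overlapped by a peak in all 3 knockouts. Most were weak. At fold enrichment of 4 or more the pair had 1 peak in wild type, 2 in Ezh2-cKO and 5 in each demethylase knockout. Of the whole lists that limit kept 11716 of 28057 peaks in wild type and 12498 of 33739 in Ezh2-cKO. It kept 14455 of 49405 in Utx-cKO and 13017 of 27013 in Jmjd3-cKO. Each list has its own input, so these counts are not read as a difference between genotypes. Wnt3a and Wnt9a had 2 in wild type at that limit. Among 11519 neighbouring gene pairs no further apart than the Wnt pairs (up to 16.1 kb), the median number was 2 in wild type, and 2.64% had 8 or more. Peaks at this pair were short: in wild type they ran from 259 to 809 bp with a median of 486 bp, against a list median of 997 bp. They covered 7.01% of the 59.8 kb window in wild type, 9.46% in the Ezh2-cKO, 16.3% in the Utx-cKO and 9.08% in the Jmjd3-cKO, and 39.8% of the neighbouring pairs were covered at least as much in wild type. The pair thus stood high by number of peaks and near the middle by bases covered.

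Wnt6, a ligand that keeps early somites and kidney tubules epithelial, had a peak over its RefSeq start in every list. Its width there was 809 bp in wild type, 1568 bp in the Ezh2-cKO, 2648 bp in the Utx-cKO and 1453 bp in the Jmjd3-cKO, and its fold enrichment over input was 4.92, 4.82, 4.79 and 6.57 in the same order. Fold enrichment is the authors' own value for a peak over its input, and ranks peaks within a list only. All 3 knockout peaks were wider than the wild-type one, and the Utx-cKO peak reached furthest upstream, 1399 bp before the start against 312 to 354 bp in the other lists. A further peak lay inside Wnt6, 12093 bp downstream of the start (chr1:74783985-74784827 over the 4 lists), with fold enrichment 3.62 in wild type, 4.83 in the Ezh2-cKO, 5.08 in the Utx-cKO and 5.01 in the Jmjd3-cKO. In Ezh2-cKO and Utx-cKO this inner peak, not the one at the start, was the strongest at Wnt6.

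Wnt10a, a ligand needed for teeth and hair follicles, carried a row of small peaks from one end to the other. At the end that faces Wnt6, a peak spanned the gene boundary at 74792019 in each list, 754 bp wide in wild type, 553 in the Ezh2-cKO, 679 in the Utx-cKO and 701 in the Jmjd3-cKO. It was the one wild-type peak at the pairs that no knockout widened. Inside the gene 3 more regions were called in all 4 lists, and beyond its other end 2 more, at chr1:74806500-74807403 and chr1:74808345-74808872. The strongest peak at Wnt10a changed place between lists: the boundary peak led in wild type (3.38) and Jmjd3-cKO (4.92), the region at chr1:74793378-74795168 in Ezh2-cKO (3.79), and the outermost one in Utx-cKO (4.91). The region at chr1:74793378-74795168 was 426 bp wide in wild type and 1658 bp in Utx-cKO. The long noncoding RNA gene Gm32099 overlaps the first part of Wnt10a and shares 2 of these peaks in every list, so peaks there cannot be assigned to 1 gene. In Utx-cKO a further peak over Gm32099 lay between Wnt6 and Wnt10a, at chr1:74788264-74788910.

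Wnt1 and Wnt10b held 3 peaks in wild type, 4 in the Ezh2-cKO, 8 in the Utx-cKO and 4 in the Jmjd3-cKO. Peaks covered 3.45% of the 33.1 kb window in wild type, 5.99% in the Ezh2-cKO, 24.9% in the Utx-cKO and 9.15% in the Jmjd3-cKO. The median neighbouring pair had 5.18%, 6.10%, 8.67% and 5.22% in the same order, so the pair was below it in wild type and Ezh2-cKO and above it in both demethylase knockouts. With equally long lists Utx-cKO had 3 peaks, as wild type had, over 5941 bp against 1142 bp. The strongest peak within the pair was modest everywhere, from 3.42 in wild type to 4.09 in Utx-cKO.

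Wnt1, the ligand that patterns the midbrain and supports bone mass, had 1 peak over its body in each list, and the place of that peak differed. In wild type it was 251 bp wide and began 1055 bp downstream of the start, and in Ezh2-cKO it was 330 bp wide and began 2837 bp downstream. In Utx-cKO a single peak of 3225 bp ran from 181 bp before the start to 3043 bp after it, and in Jmjd3-cKO a peak of 1467 bp ran from 57 bp before to 1409 bp after. The start of Wnt1 thus lay under a peak in both demethylase knockouts and in neither of the other lists, and the wild-type and Ezh2-cKO peaks did not touch each other. Of all starts, 5.86% were under a peak in Utx-cKO and not in wild type, 2.94% in Jmjd3-cKO and not in wild type, and 3.31% in Ezh2-cKO and not in wild type. These peaks were weak: fold enrichment was 2.60 in wild type, 2.61 in the Ezh2-cKO, 3.32 in the Utx-cKO and 2.66 in the Jmjd3-cKO. With peaks of −log10 q of 3 or more, Wnt1 had a peak in Utx-cKO only.

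At Wnt10b, which favours bone over fat formation, every list had a peak over the start. It was 629 bp wide in wild type, 1056 bp in the Ezh2-cKO, 2342 bp in the Utx-cKO and 791 bp in the Jmjd3-cKO, where a further peak of 415 bp lay deeper in the gene, under the span of the Utx-cKO peak. The Utx-cKO peak reached 1887 bp into the gene, against 311 to 434 bp in the other lists. Towards the far end of Wnt10b a region at chr15:98772503-98772993 was called in wild type, Ezh2-cKO and Utx-cKO, and its wild-type peak was 1 of 2 at the pairs that a knockout list lacked. The other was the Wnt1 peak, missed by Ezh2-cKO. Beyond that end a region at chr15:98765364-98766290, in Ezh2-cKO and Utx-cKO, also lay within 5 kb of Arf3.

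Wnt3 and Wnt9b held 2 peaks in wild type, Ezh2-cKO and Jmjd3-cKO, and 4 in Utx-cKO, the fewest of the pairs in each list, though level with Wnt3a and Wnt9a in wild type and Jmjd3-cKO. The same 2 regions were called in all 4 lists, one at Wnt9b and one at Wnt3, and together they covered 1.24% of the 100.7 kb window in wild type. At least that much was covered in 79.5% of neighbouring pairs. One of the added Utx-cKO peaks reached 5 kb of Wnt9b by its edge only, and the wild-type peak at the same place ended 44 bp outside the limit, so that addition depends on the window limit.

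Wnt9b, which induces kidney tubules, had its peak over the start in every list. In wild type the peak was 393 bp wide and ended 4 bp upstream of the start, the least margin of all. Widths were 618 bp in the Ezh2-cKO, 1003 bp in the Utx-cKO and 766 bp in the Jmjd3-cKO, and fold enrichment was 2.81 in wild type, 3.50 in the Ezh2-cKO, 3.999 in the Utx-cKO and 4.87 in the Jmjd3-cKO. All 3 knockout peaks were wider than the wild-type one.

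Wnt3, needed for gastrulation and limb outgrowth, showed the reverse layout. No list had a peak over its start: the nearest lay 24.4 kb upstream in wild type, 24.1 kb in Ezh2-cKO and in Jmjd3-cKO, in each case the peak at the Wnt9b start, and 495 bp upstream in Utx-cKO. That Utx-cKO peak was 426 bp wide with fold enrichment 2.74. The constant peak of Wnt3 lay 35232 bp downstream of the start, within the gene (chr11:103809407-103810530 over the 4 lists). It was the strongest peak at any of the 8 genes in each knockout, with fold enrichment 4.20 in wild type, 5.79 in the Ezh2-cKO, 5.43 in the Utx-cKO and 7.33 in the Jmjd3-cKO. Its width was 853 bp, 623 bp, 1080 bp and 793 bp in the same order, narrower than wild type in Ezh2-cKO and Jmjd3-cKO.

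Wnt3a and Wnt9a held 2 peaks in wild type, 4 in the Ezh2-cKO, 8 in the Utx-cKO and 2 in the Jmjd3-cKO. With equally long lists the Utx-cKO number was 3. A strip of the interval between the genes lies over 5 kb from both, and outside these counts it held 1 peak in Ezh2-cKO and 2 in Utx-cKO. In Utx-cKO peaks covered 11.3% of the 95.5 kb window, in Ezh2-cKO 4.81%, in Jmjd3-cKO 4.14% and in wild type 1.87%. These shares include the strip, which adds bases in Utx-cKO and Ezh2-cKO only. The counted peaks made up 9018 of 10752 bp in Utx-cKO and 3943 of 4598 bp in Ezh2-cKO.

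Wnt9a, the ligand known for marking future joints and for holding back cartilage differentiation, carried the widest peak at the 8 genes in every list but that of Ezh2-cKO, where the peak over the Wnt6 start was wider at 1568 bp. The peak over its start was 1084 bp wide in wild type, 1195 bp in Ezh2-cKO, 3209 bp in Jmjd3-cKO and 4630 bp in Utx-cKO. By length it stood at the top 46.8% of the wild-type list, 41.7% of the Ezh2-cKO list, 9.87% of the Jmjd3-cKO list and 4.62% of the Utx-cKO list. Fold enrichment there was 5.04, 5.34, 6.40 and 5.32 in wild type, Ezh2-cKO, Jmjd3-cKO and Utx-cKO. The added width lay mainly inside the gene, where the peak reached 2587 bp past the start in Jmjd3-cKO and 2833 bp in Utx-cKO, against 498 bp in wild type and 678 bp in Ezh2-cKO. Upstream, the Utx-cKO peak alone went further, 1796 bp against 516 to 621 bp. Further peaks inside Wnt9a lay in Ezh2-cKO (1) and Utx-cKO (2), where the long noncoding RNA gene Gm51865 overlaps it.

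Wnt3a, which drives somite formation and holds back cartilage differentiation in culture, resembled Wnt3 in layout. Its constant peak lay 26015 bp downstream of the start, inside the gene (chr11:59263753-59264736 over the 4 lists), with widths of 706 bp in wild type, 874 bp in the Ezh2-cKO, 852 bp in the Utx-cKO and 746 bp in the Jmjd3-cKO. Fold enrichment there was 4.81, 3.85, 5.16 and 4.96 in the same order. A peak over the Wnt3a start was called in Utx-cKO alone, 513 bp wide with fold enrichment 2.93, and it was lost both with equally long lists and at −log10 q of 3 or more. In the other lists the nearest peak lay 15.6 kb (wild type and Jmjd3-cKO, at the Wnt9a start) or 6.10 kb (Ezh2-cKO) upstream.

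**Figure D3:**
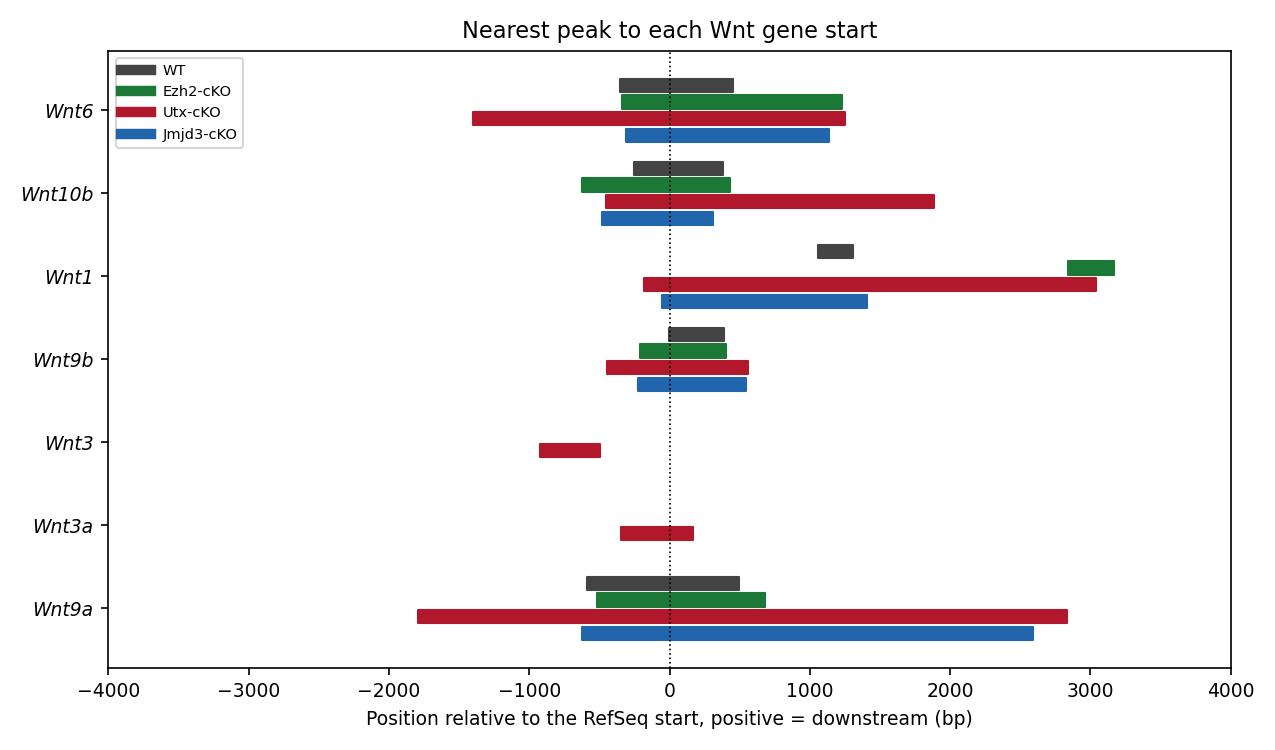
Nearest peak to each of 7 RefSeq starts, in bp relative to the start in the direction of transcription, by genotype; a nearest peak beyond the axis is not drawn. At Wnt6, Wnt10b, Wnt9b and Wnt9a a bar crosses the start in all 4 genotypes, at Wnt1 in Utx-cKO and Jmjd3-cKO, at Wnt3a in Utx-cKO and at Wnt3 in none.

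Across the 7 starts, 4 lay under a peak in wild type, 4 in the Ezh2-cKO, 6 in the Utx-cKO and 5 in the Jmjd3-cKO. Over all 21263 starts the shares were 55.6%, 57.8%, 61.0% and 57.1% in the same order. Among these 7, CpG content did not separate starts with a peak from those without one. Over all starts the share under a peak in wild type rose with CpG number, from 8.56% to 97.6%. Wnt9a had 48 CpG in its 250 bases and Wnt3a 41, counts that 0.24% and 1.36% of all 21263 starts reach, and of starts with 30 or more CpG only 1.10% had no peak in any list. Wnt3a lacked one in 3 of the 4 lists. The starts of Wnt6, Wnt1, Wnt9b and Wnt3 had 28, 23, 22 and 22 CpG. In that class, 20 to 29 CpG, 94.2% of starts were under a peak in wild type and 2.90% had none in any list. Wnt3 belonged to those 2.90%, and Wnt1 had none in wild type. Wnt10b, with 14 CpG the lowest of the 7, had a peak in every list, and the median over all starts was 10. The counts are a description of the sequences printed above and of the other 2 starts.

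**Figure D4:**
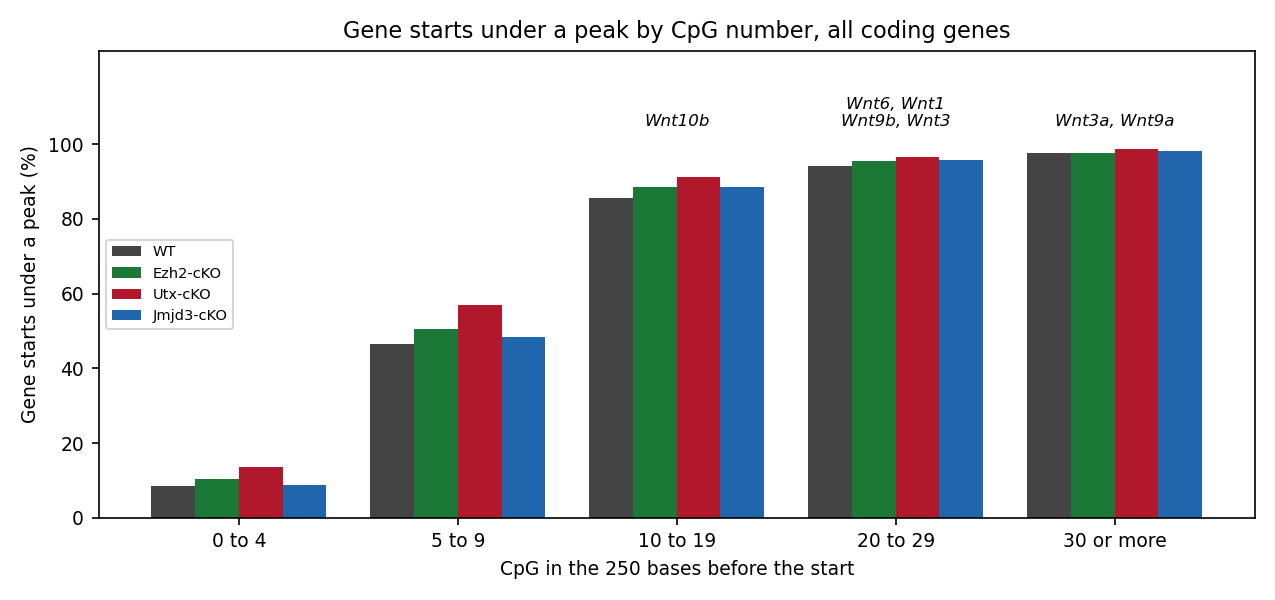
Share of RefSeq starts of protein-coding genes under a peak, by number of CpG in the 250 bases before the start and by genotype (bars, 1 library each). The 7 Wnt genes are named above the class they fall in. In wild type the share rises from 8.56% with 0 to 4 CpG to 97.6% with 30 or more, the class that holds Wnt3a and Wnt9a.

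Where wild type and a knockout both had a peak, the knockout peak was mostly wider. Of the 15 wild-type peaks at the pairs, 14 were overlapped in the Ezh2-cKO, 15 in the Utx-cKO and 14 in the Jmjd3-cKO, and over all wild-type peaks the shares were 80.7%, 87.3% and 75.8%. Over the 14921 wild-type peaks no longer than the longest one here (1084 bp) they were 66.1%, 77.6% and 57.9%. Overlapping peaks were wider than the wild-type one in 10 of 14 cases in the Ezh2-cKO, 14 of 15 in the Utx-cKO and 10 of 14 in the Jmjd3-cKO. Among overlapped short wild-type peaks of the whole list, 69.8%, 83.7% and 67.1% had a wider partner. At the pairs the median ratio of widths was 1.17 in the Ezh2-cKO, 1.81 in the Utx-cKO and 1.23 in the Jmjd3-cKO. Over the same short peaks of the whole list the median ratios were 1.22, 1.63 and 1.17, near those at the pairs. The largest ratios were at Wnt1, 12.8 in the Utx-cKO and 5.84 in the Jmjd3-cKO, and next in Utx-cKO at Wnt9a, 4.27.

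Peaks that Utx-cKO held at the pairs without a wild-type peak in the same region were weaker than its others by the median. There were 14 of them, from 324 to 906 bp wide, and their fold enrichment had a median of 2.71 and a maximum of 3.16. The other 16 had a median of 4.06, but they began at 2.49, so the 2 sets overlapped. Ezh2-cKO had 3 such peaks and Jmjd3-cKO 1. The share of such peaks over each whole list was not computed. The Utx-cKO list held 49405 peaks against 28057 in wild type, so these numbers are not read as a trait of the pairs.

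No peak joined the genes of a pair. In none of the 4 lists did 1 peak lie over both genes of a pair. At 3 pairs such a peak would have to be longer than the gap of 6.70, 11.65 or 16.1 kb. The longest peak at the pairs was 4630 bp. Of neighbouring pairs, 15.8% had such a peak in wild type, 17.1% in the Ezh2-cKO, 20.6% in the Utx-cKO and 16.3% in the Jmjd3-cKO. Those pairs were not matched for gap and include closer ones, so their shares are not a like scale. A peak within 5 kb of both genes occurred in Utx-cKO alone and at 2 pairs, between Wnt6 and Wnt10a (chr1:74788264-74788910) and before the Wnt3 start. Neither of the 2 remained with equally long lists. Of the same neighbouring pairs, 40.3% had one in wild type, 43.4% in the Ezh2-cKO, 49.0% in the Utx-cKO and 40.5% in the Jmjd3-cKO. At Wnt1 and Wnt10b, and at Wnt3a and Wnt9a, such a peak would have to cross a strip that lies over 5 kb from both genes.

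By strength the 8 genes stood below the average gene with a peak. The strongest peak within 5 kb ranged over the members from 2.60 (Wnt1) to 5.04 (Wnt9a) in wild type, from 2.61 (Wnt1) to 5.79 (Wnt3) in Ezh2-cKO, from 3.32 (Wnt1) to 5.43 (Wnt3) in Utx-cKO and from 2.66 (Wnt1) to 7.33 (Wnt3) in Jmjd3-cKO. The median over all genes with a peak was 6.49, 7.35, 8.81 and 8.12, above every member in its list. Wnt1 was the lowest member in each list. By rank within the list, Wnt9a stood at the top 33.0% of the wild-type peaks, Wnt6 at 34.0%, Wnt3a at 34.8%, Wnt3 at 39.9%, Wnt10b at 49.1%, Wnt10a at 49.8%, Wnt9b at 69.6% and Wnt1 at 84.8%. In Utx-cKO the 8 genes stood between the top 22.9% and 38.7%, but that list has a longer tail of weak peaks. With equally long lists the Utx-cKO range was 41.8% (Wnt3) to 70.7% (Wnt1), and that of wild type 34.3% (Wnt9a) to 86.7% (Wnt1).

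**Figure D5:**
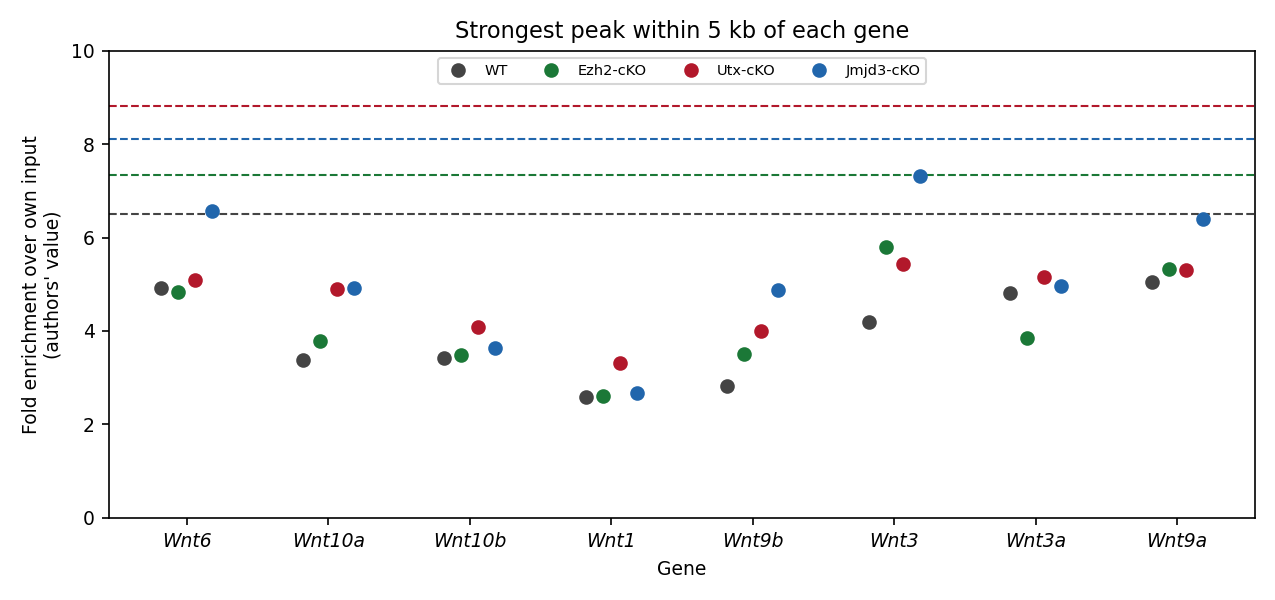
Fold enrichment of the strongest peak within 5 kb of each of the 8 genes (points, 1 library per genotype), as given by the authors over each library's own input. Dashed lines are the medians over all genes with a peak in the same list, 6.49 in wild type, 7.35 in the Ezh2-cKO, 8.81 in the Utx-cKO and 8.12 in the Jmjd3-cKO, and each point lies below the line of its colour.

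Genes closest to a member in their 4 rank percentiles, out of 14541 genes with a peak in all lists, were Map3k9 and Shtn1 for Wnt6, Mafa and Cbx7 for Wnt10a, Plpp4 and Mc4r for Wnt10b, and Wnt16 and Gbp3 for Wnt1. For Wnt9b they were Crhr1 and Chst7, for Wnt3 the histone genes H4c6 and H1f3, whose percentiles come from the same peaks, for Wnt3a Rbp7 and Acot5, and for Wnt9a Suv39h1 and Poln. Likeness is the Euclidean distance between the percentiles over 4 lists, and it ran from 1.27 (Wnt6 to Map3k9) to 7.16 (Wnt1 to Gbp3) percentage points. A single family member, Wnt16, was among the 16.

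The rest of the Wnt pathway gives the scale. The 11 Wnt ligand genes without a Wnt neighbour resembled the paired ones: all 11 had a peak in wild type, Ezh2-cKO and Utx-cKO and 10 in Jmjd3-cKO, where Wnt8a had none. Their median strongest fold enrichment was 3.78 in wild type, 4.01 in the Ezh2-cKO, 5.17 in the Utx-cKO and 5.49 in the Jmjd3-cKO, against 3.81, 3.82, 5.00 and 4.94 for the 8 paired genes. No test of this difference was made. With windows of 0 and 2 kb, 10 of the 11 had a peak in wild type, Ezh2-cKO and Utx-cKO. With equally long lists 10 had one in Ezh2-cKO and Utx-cKO. Receptors, 10 Frizzled genes with Lrp5, Lrp6, Ror1, Ror2 and Ryk, had a peak in 15 of 15 cases in each list with medians of 7.37, 9.59, 12.3 and 10.0. Signal transduction genes, such as Dvl2, which relays the signal from Frizzled, had one in 10 of 10 cases with medians of 10.5, 11.1, 13.5 and 14.1, and nuclear factors in 8 of 8 with 8.36, 8.80, 10.5 and 10.1.

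Ligand processing and secretion genes, among them Wls, the carrier of Wnt proteins to the cell surface, had a peak in 5 of 5 cases with medians of 6.27, 8.07, 10.0 and 8.15, and feedback targets such as Axin2 in 7 of 7 with 5.48, 6.46, 6.79 and 5.91. Genes of receptor turnover numbered 8 of 9 in wild type and 9 in each knockout, Rspo4, a secreted enhancer of Wnt signals, being added with fold enrichment 2.76 in the Ezh2-cKO, 2.71 in the Utx-cKO and 2.85 in the Jmjd3-cKO. Antagonists numbered 10 of 12 in wild type and 11 in each knockout through Sfrp5, a decoy receptor, with 2.51, 3.02 and 3.13, and Dkk4 had no peak in any list. With equally long lists receptor turnover stood at 8 in Utx-cKO and antagonists at 10 in Ezh2-cKO, as in wild type. With windows of 0 and 2 kb receptor turnover stood at 8 in Ezh2-cKO and antagonists at 10 in Ezh2-cKO and Jmjd3-cKO, again as in wild type. Over all genes, 3.05% gained a peak within 5 kb in the Ezh2-cKO, 5.3% in the Utx-cKO and 2.0% in the Jmjd3-cKO relative to wild type, and 1.12%, 0.507% and 1.77% lost one. None of the 8 paired genes did either. Lists and members were chosen with earlier results of these data known, and their counts are no independent evidence.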

How the data were processed

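H3K27me3 ChIP libraries of mouse chondrocytes, 1 for each of 4 genotypes, were analysed through the authors' peak lists. The submitters' processing notes name HOMER 4.10, deepTools 2.4.1, FastQC 0.11.5, ChIPseeker, MACS2 and Bowtie2, and neither they nor other sources used here give a Bowtie2 version or a genome build. Broad peaks were called by the authors with MACS 2.1.2, 1 genotype at a time, with paired-end fragments and that genotype's own input as control, per the file headers. The headers also record q 0.05, a broad threshold of 0.05, at most 1 duplicate per position and scaling of the larger library to the smaller. The deposited columns are pileup (a coverage signal, not compared here), −log10 p, −log10 q, fold enrichment (a ratio over local input) and length in bp. Calls depend on depth and on the input, so presence in a list is not a level of the mark.

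Genes and starts came from RefSeq tables of GRCm38.p6, without exons, so exons and introns were not told apart. The files' build was settled by a shift: 55.6% of starts lay under a wild-type peak, against 3.46% and 3.34% with starts moved by 20 kb either way. Members, lists and comparisons were chosen with earlier results of these data known, and the start analysis was added after peak positions were seen. Named genes were the 8 members, other genes within 5 kb of their peaks, pathway genes whose call differed between lists, up to 4 a list, and 2 genes per member nearest in rank percentiles. Pathway genes named only to show what a list holds, and flanking genes, were chosen otherwise. Ranks are by fold enrichment or length within a list. Alternatives were windows of 0, 2 and 10 kb, −log10 q of 3 or more, fold enrichment of 4 or more, equally long lists, merging within 3 kb and an overlap of 50% of the shorter peak. The gene call was tested on simulated peaks: each of 200 seeded genes was recovered in a search of 21887. Python 3.11.15, numpy 2.4.6, pandas 2.3.3 and matplotlib 3.10.9 were used.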

Additional observations from a re-analysis of the deposited data

How the results depend on the processing

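No paired analysis was possible because each genotype had 1 ChIP library. Without replicates, depth and list length limit what a difference in calls can show. All 8 genes kept a peak in every list with windows of 0, 2 and 10 kb, with equally long lists and with merging. The counts of starts under a peak, with their alternatives, were chosen after seeing the data. No library could be left out in turn, since each genotype has 1.

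At fold enrichment of 4 or more, genes with a peak numbered 4 in wild type, 3 in Ezh2-cKO and 6 in each of the other 2. At that limit the peaks at the pairs were 4, 4, 9 and 9 in wild type and the Ezh2, Utx and Jmjd3 knockouts, differences from wild type of 0, 5 and 5. Covered bases were 3452, 3825, 15544 and 9641, differences of 373, 12092 and 6189, and starts under a peak were 2, 2, 3 and 3, a Utx-cKO difference of 1. At −log10 q of 3 or more Utx-cKO had 16 peaks, 5 above wild type, and 15122 more covered bases, and Ezh2-cKO 1 peak and 2766 bases more. Starts then exceeded wild type by 1 in Utx-cKO and 0 in Jmjd3-cKO. When lists were limited to one length, Utx-cKO had 16 peaks, 1 above wild type, 13670 more covered bases and 1 more start.

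Merging peaks within 3 kb, which fills the gaps by construction, left 19 peaks in Utx-cKO, 7 above wild type, and 10 in Jmjd3-cKO, where the difference turned to -2. Covered bases became 14063, 21733, 54581 and 25344, which is 7670, 40518 and 11281 above wild type. With a window of 10 kb Ezh2-cKO had 6 peaks more than wild type, and a peak near both genes occurred at 1, 2, 4 and 1 pairs. In Utx-cKO that number was 1 with a window of 2 kb and 0 with a window of 0 kb, with equally long lists and at both stricter limits. The Utx-cKO surplus was 7 and 8 peaks with windows of 0 and 2 kb. With a window of 10 kb the strongest peak at Wnt10b moved from the top 49.1% to 9.23% in wild type. In Ezh2-cKO it moved from 42.2% to 3.10% and in Utx-cKO from 28.6% to 2.07%, the ranks of the strongest peak at Arf3. The strongest peak at Wnt1 in Ezh2-cKO moved from 74.1% to 47.2%. With an overlap of 50% of the shorter peak the same 14, 15 and 14 wild-type peaks counted as shared. The cause of these changes was not tested.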

Other observations

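Of the flanking genes looked up, Arf1, Arf3, Prkag1 and Gosr2 carried stronger peaks in each list than any Wnt gene of the pairs. Nsf, Ddn, Cyp27a1 and Prkag3 did not. In Jmjd3-cKO Nsf (6.85) and Ddn (3.64) were below Wnt3 (7.33), and in wild type Cyp27a1 (4.29) was below Wnt9a (5.04). Arf1, beside Wnt3a, had a strongest fold enrichment of 8.32 in wild type, 9.11 in the Ezh2-cKO, 12.3 in the Utx-cKO and 11.1 in the Jmjd3-cKO. Arf3, its relative beside Wnt10b, had 8.75, 12.2, 14.5 and 15.3 in the same order, and Gosr2, beyond the Wnt9b end, 12.7, 13.4, 15.5 and 12.7. Arf genes encode small GTPases of vesicle traffic, and Gosr2 a Golgi transport protein. At the Wnt6 side the muscle kinase subunit gene Prkag3 had a peak in Ezh2-cKO (2.44) and Jmjd3-cKO (3.76) and none in wild type or Utx-cKO. Its peaks ended 244 bp and 259 bp outside the 5 kb limit of Wnt6. These flanking genes were chosen after their values were seen.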
